A study of Arabidopsis thaliana with 12 samples.

Results

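Photosystem II, photosystem I and the light-harvesting antenna are the pigment-protein complexes of the thylakoid membrane that capture light and drive photosynthetic electron flow. Part of their subunits is made from nuclear genes, whose transcripts are among the abundant messages of green leaves, and the proteins are imported into the chloroplast. The 4 genes described here are PSBY (AT1G67740) and PSBW (AT2G30570), which encode small membrane subunits of photosystem II, LHB1B2 (AT2G34420, also called LHCB1.5), which encodes a chlorophyll a/b-binding protein of the main antenna of photosystem II, and PSAN (AT5G64040), which encodes a subunit of photosystem I on the lumen side of the membrane. They were chosen by locus, as genes of these complexes to which the array annotation gave a probe of their own, and each had 1 probe, out of 692 single-gene probes and 3439 probes in all. Of 46 genes listed for photosystem I, photosystem II and the antenna, 1 further gene, PSB27, had a single-gene probe, and 3 were found only in probes that name several genes.

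The arrays measured total RNA of Arabidopsis thaliana plants, wild type, ecotype Columbia 0. In 1 group the leaves had been cut and the plants were taken 2 days after this mechanical wounding (6 arrays), and in the other the plants were untreated (6 arrays). No time of harvest was given for the untreated plants, so time and wounding cannot be told apart. The labels did not name the organ sampled. They also left unsaid whether replicate arrays were hybridised with RNA of different plants, so the p-values below rest on array-to-array spread that may be technical.

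The arrays had mean intensities of 0.983 to 1.09, and none of the 4 genes was listed at 0 on any array. Over 3034 probes measured on every array, wounded replicate 4 stood apart, with r between 0.412 and 0.483 to the other arrays, against 0.886 to 0.989 among the other 11. A set of 5 pairs of arrays resembled each other most, at r between 0.956 and 0.989, namely wounded 2 and 3, wounded 5 and 6, untreated 1 and 2, untreated 3 and 4, and untreated 5 and 6. Results below are therefore given with and without wounded replicate 4, and with these 5 pairs averaged, which leaves 7 units. None of 10 wound response genes, LOX2 and VSP2 among them, had a single-gene probe, so the treatment could not be checked on them. Since the RNA was of bulk tissue, a change in the share of green cells and one in RNA per green cell cannot be told apart.

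PSBY makes a precursor that is cut into a pair of small proteins of photosystem II. Its deposited intensity, on a linear scale without a named unit, was 1.54, 1.47, 1.196, 2.99, 1.28 and 1.21 on wounded arrays 1 to 6. On untreated arrays 1 to 6 it was 0.967, 0.973, 1.13, 1.095, 1.66 and 1.46. Wounded replicate 4 was the highest array, the other 5 wounded arrays lay between 1.196 and 1.54, and the groups overlapped because untreated 5 and 6 were as bright as the wounded ones. The mean was 1.61 ± 0.688 in wounded plants and 1.21 ± 0.282 in untreated plants (SD, n = 6 each). Without wounded replicate 4 the wounded mean was 1.34 ± 0.157 (SD, n = 5).

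PSBW stabilises the contact between photosystem II and its antenna. Its intensity was 35.3, 33.4, 36.9, 15.7, 19.4 and 19.5 on wounded arrays 1 to 6. On untreated arrays 1 to 6 it was 16.2, 16.3, 22.4, 23.0, 27.7 and 28.6. Wounded 1 to 3 were above all untreated arrays, while wounded 4 to 6 were among or below the lower untreated ones. The mean was 26.7 ± 9.48 in wounded plants and 22.4 ± 5.34 in untreated plants (SD, n = 6 each).

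LHB1B2 belongs to the LHCB1 family, whose proteins bind a large part of the chlorophyll b of the leaf. The members of this family are very similar in sequence, and the probe sequences were not used here, so signal from other LHCB1 transcripts cannot be separated. The intensity of LHB1B2 was 8.05, 8.60, 9.79, 10.6, 0.917 and 0.944 on wounded arrays 1 to 6, against 4.55, 4.57, 7.49, 8.58, 6.84 and 7.27 on untreated arrays 1 to 6. Wounded 5 and 6 were far below every other array, and wounded 2, 3 and 4 were above all untreated arrays, the first of them by little. The wounded group therefore enclosed the whole untreated range, and its highest array was 11.5 times its lowest, against 1.88 times in the untreated group. The mean was 6.48 ± 4.39 in wounded plants and 6.55 ± 1.64 in untreated plants (SD, n = 6 each). The median was 8.33 over the wounded and 7.05 over the untreated arrays.

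PSAN takes part in the docking of plastocyanin, the electron donor of photosystem I. Its intensity was 1.90, 2.58, 2.78, 3.42, 0.470 and 0.491 on wounded arrays 1 to 6, against 0.722, 0.769, 1.86, 1.73, 1.33 and 1.63 on untreated arrays 1 to 6. As for LHB1B2, wounded 5 and 6 were the lowest of all arrays, untreated 1 and 2 came next, and wounded 2, 3 and 4 were the highest. The mean was 1.94 ± 1.23 in wounded plants and 1.34 ± 0.492 in untreated plants (SD, n = 6 each). The highest array was 7.29 times the lowest in the wounded group and 2.57 times in the untreated group.

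**Figure D1:**
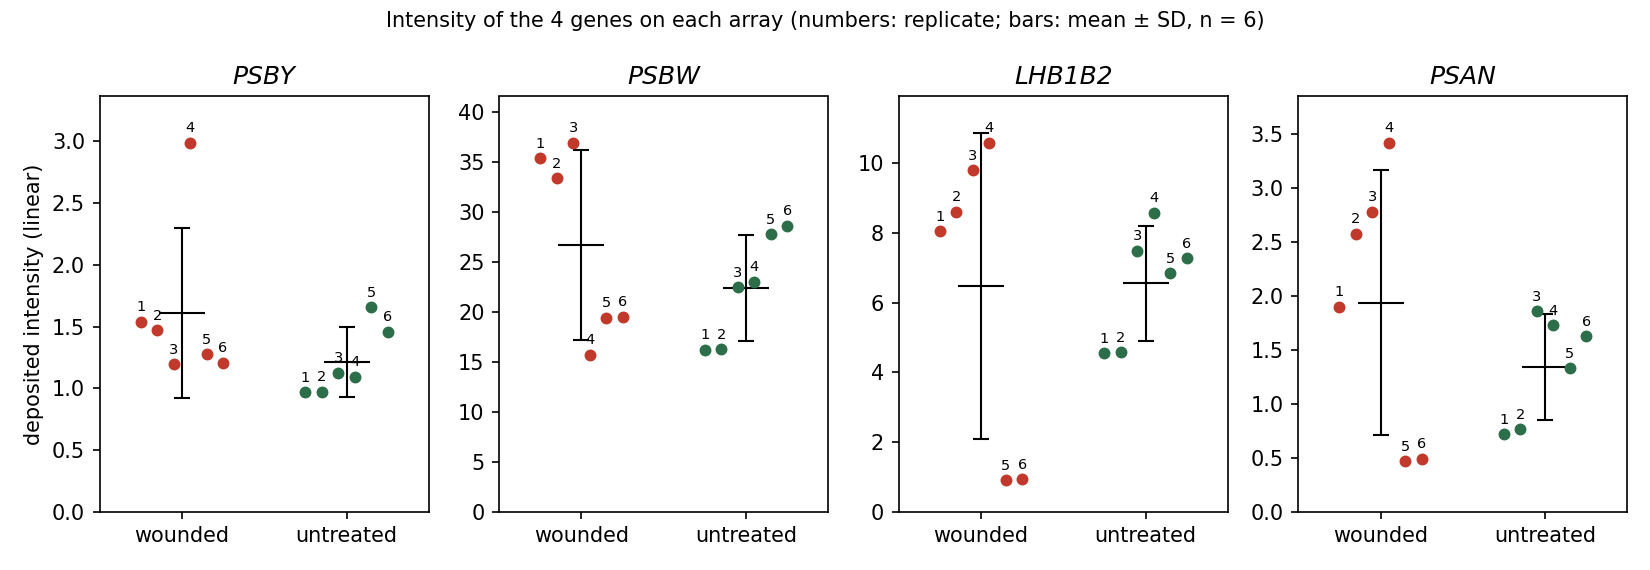
Deposited intensity (vertical axis, linear, no named unit) of PSBY, PSBW, LHB1B2 and PSAN on the 6 wounded (left) and 6 untreated (right) arrays, with the replicate number at each point and the mean ± SD as bars. Wounded 5 and 6 lie at 0.917 and 0.944 for LHB1B2 and at 0.470 and 0.491 for PSAN, below all other arrays, and the groups overlap for each gene.

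The comparison of wounded with untreated plants asks whether transcript levels differ 2 days after the cuts. Under limma, on log2 values brought to a common distribution over the arrays (quantile normalization), none of the 4 genes passed the threshold of 0.05 on the adjusted p. The background was 0% of 3233 probes called over the 12 arrays, with 11.6% at an unadjusted p under 0.05, and 2.22% of 3203 called without wounded replicate 4, with 20.8% at an unadjusted p under 0.05. None of the 4 genes had an unadjusted p under 0.05 in either fit. PSBY had a mean log2 difference, wounded minus untreated, of 0.63 ± 0.32 (SE, limma adjusted p = 0.468), which became 0.36 ± 0.22 without wounded replicate 4 (limma adjusted p = 0.363). It was the member with the smallest unadjusted p in limma, 0.0724. PSBW had a difference of -0.21 ± 0.17 (limma adjusted p = 0.593) and -0.08 ± 0.10 without that array. LHB1B2 had one of -0.68 ± 0.64 (limma adjusted p = 0.643) and -0.92 ± 0.66 without it, and PSAN had 0.45 ± 0.60 (limma adjusted p = 0.735) and 0.14 ± 0.57. The median over the 4 genes was 0.12 over the 12 arrays and 0.028 without wounded replicate 4, beside -0.02 over all probes in both fits.

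The groups overlapped for each of the 4 genes on both scales, where 4.71% of 3034 probes had no overlap between the groups in the deposited intensities and 3.56% after quantile normalization. The sign for PSBW turned with the scaling, at 0.21 ± 0.27 with no further scaling of the deposited values and 0.56 ± 0.34 with each array centred on its median. LHB1B2 and PSAN depended most on single arrays. LHB1B2 ranged from -0.93 (without wounded replicate 3) to -0.23 (without wounded replicate 5). PSAN ranged from 0.14 (without wounded replicate 4) to 0.81 (without wounded replicate 5). No setting left out wounded 5 and 6 together. In deposited intensity wounded 1 to 4 had 8.05 to 10.6 for LHB1B2, above its untreated mean of 6.55.

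**Figure D2:**
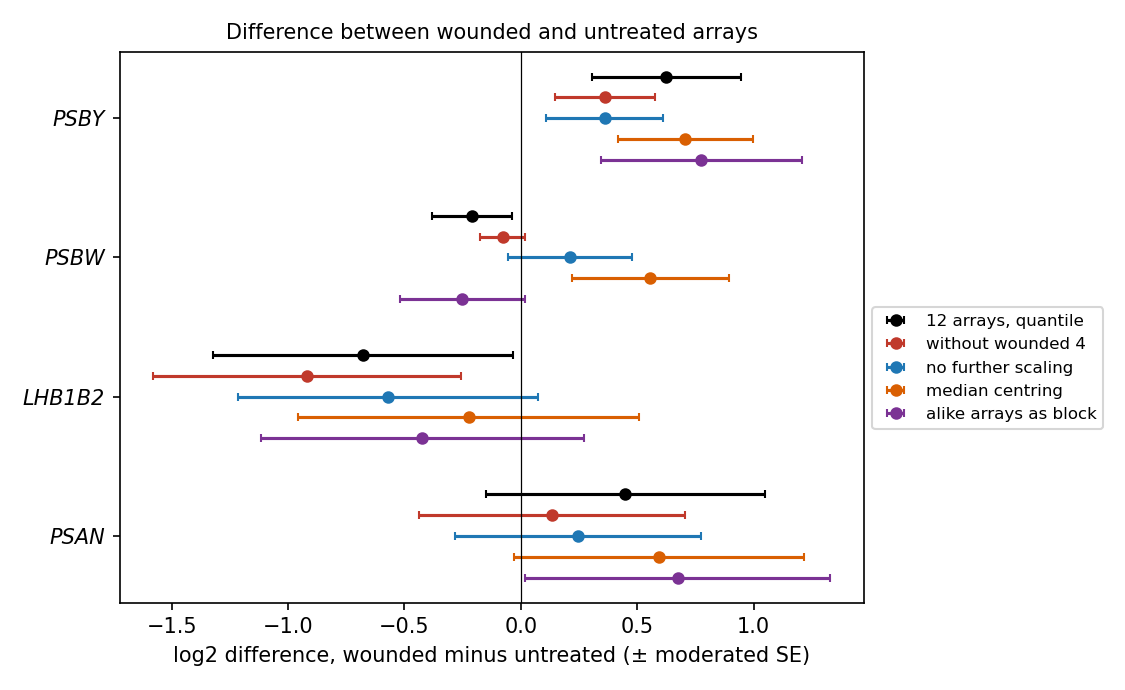
Log2 difference, wounded minus untreated (horizontal axis), with its moderated SE, for the 4 genes under 5 settings of the limma fit. The 5 values of PSBW lie on both sides of 0, from -0.25 to 0.56, while those of PSBY are all above 0 and those of LHB1B2 all below.

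The spread over arrays differed widely among the 4 genes. On the quantile-normalized log2 scale, the SD over 12 arrays was 1.23 for LHB1B2, 1.12 for PSAN, 0.64 for PSBY and 0.26 for PSBW, beside a median of 0.51 over 3034 probes. The SD of LHB1B2 was above that of 95.5% of the probes and that of PSAN above 92.8%, and without wounded replicate 4 these shares were 98.7% and 97.3%. Within the untreated arrays alone PSAN was still among the most variable probes, with an SD of 0.76 that exceeded that of 96.5% of probes, whereas LHB1B2 had an SD of 0.37 and exceeded 74.5%. PSBW was at the other end, with 9.10% of probes less variable over the 12 arrays and 1.05% without wounded replicate 4.

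The low spread of PSBW belongs to the quantile-normalized scale, on which 11 arrays lay between 4.52 and 4.80 and wounded replicate 4 at 3.81. On the deposited scale its highest array was 2.35 times its lowest. With median centring its SD was 0.66, against 0.26 with quantile normalization.

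For LHB1B2 the 2 arrays of a resembling pair differed by at most 0.25 on the log2 scale, while the 7 units spanned 3.40, or 3.34 without wounded replicate 4. For PSAN the largest difference within a pair was 0.27 and the span 3.34, or 2.61 without that array. LHB1B2 and PSAN thus differed far more between units than within a pair with and without it. For PSBY the largest difference within a pair was 0.25 and the span 2.44, but 1.06 without wounded replicate 4. For PSBW these values were 0.13, 0.98 and 0.27, so most of its span came from that array. The labels do not say whether the arrays of a pair share a sample.

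**Figure D3:**
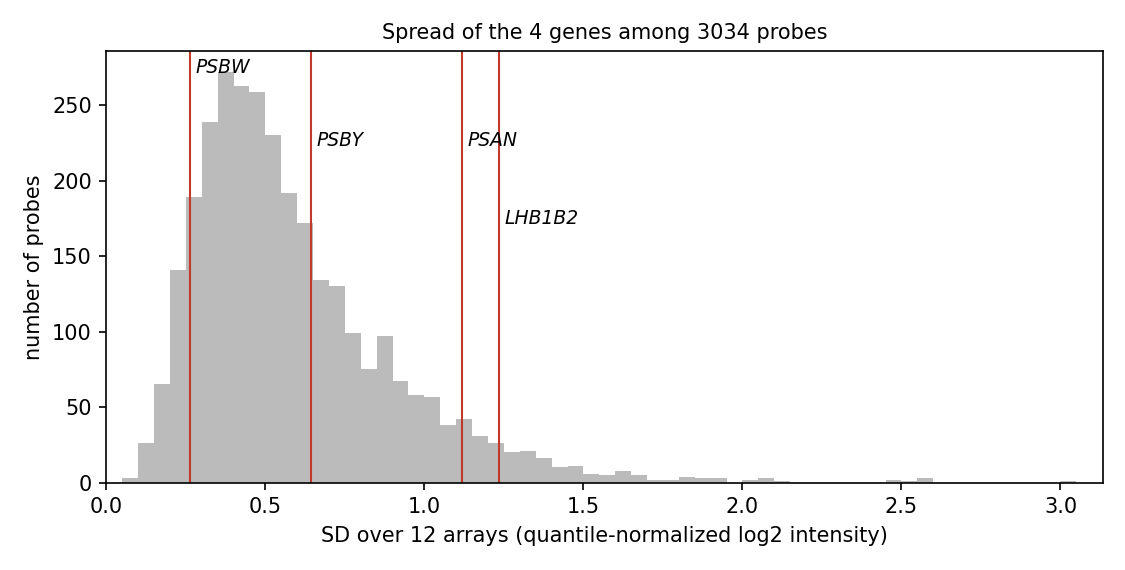
Number of probes (vertical axis) by SD over the 12 arrays of the quantile-normalized log2 intensity (horizontal axis), for 3034 probes, with the 4 genes as vertical lines. LHB1B2 at 1.23 and PSAN at 1.12 lie in the upper tail, PSBY at 0.64 above the median of 0.51, and PSBW at 0.26 in the lower tail.

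Of the 6 pairs among the 4 genes, LHB1B2 and PSAN varied together most closely. Over the 12 arrays Pearson's r was 0.81 (permutation p = 4.0e-05, adjusted over the 6 pairs p = 0.00024) and Spearman's rho was 0.94 (permutation p = 4.0e-05). Leaving out wounded 5 and 6, the arrays farthest from the median of LHB1B2, raised r to 0.94 over 10 arrays, so the relation did not rest on them. It was 0.84 without wounded replicate 4 (permutation adjusted p = 0.00024), 0.81 over the 7 units (exact permutation adjusted p = 0.00476), and 0.84 over the 6 units left without wounded replicate 4 (exact permutation adjusted p = 0.0333). Within groups r was 0.97 over the 6 wounded arrays (exact permutation p = 0.0167, adjusted p = 0.0667) and 0.97 over the 6 untreated arrays (exact permutation p = 0.0417, adjusted p = 0.183). The tests over single arrays count the resembling arrays as separate samples. Every untreated array and most wounded ones belonged to a resembling pair, so the p-values within groups may be too small.

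**Figure D4:**
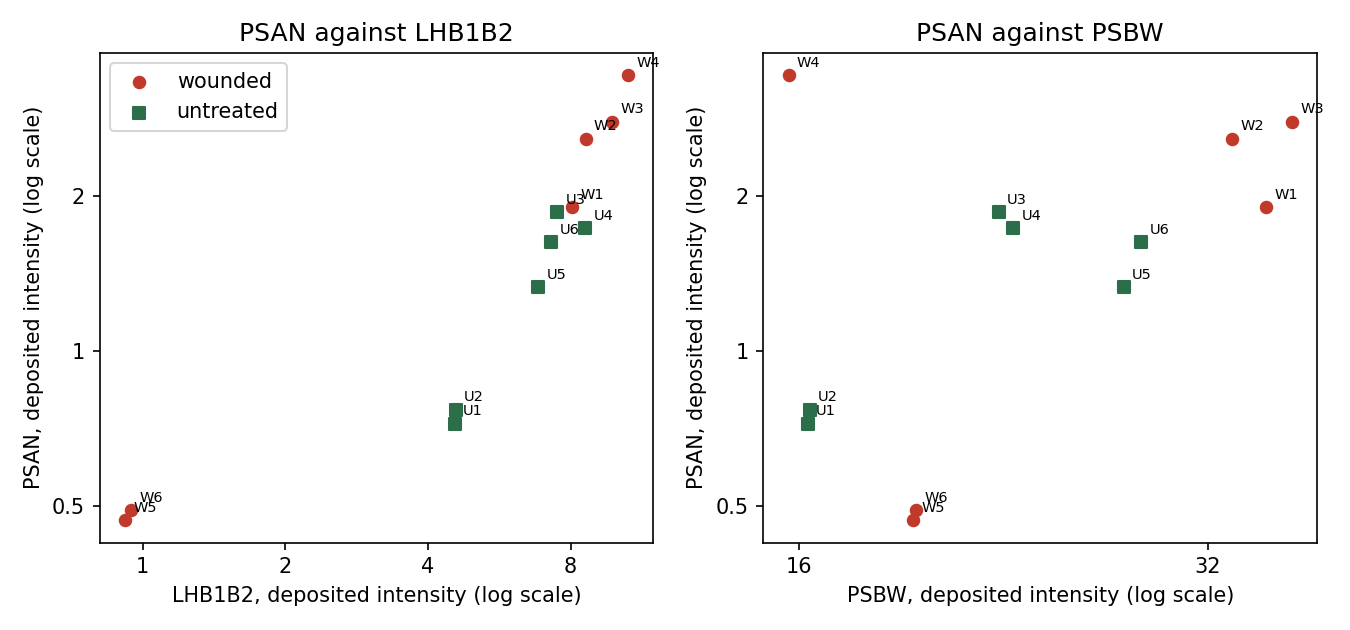
Deposited intensity of PSAN (vertical axes) against LHB1B2 (left) and PSBW (right), both on log axes, with wounded arrays as circles (W) and untreated arrays as squares (U). PSAN and LHB1B2 are both lowest on wounded 5 and 6 and both highest on wounded 4, whereas wounded 4 has the highest PSAN, at 3.42, and the lowest PSBW, at 15.7.

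PSBY followed PSAN less firmly. Their r was 0.73 over the 12 arrays (permutation p = 0.00402, adjusted p = 0.0121) with a rho of 0.58 (permutation p = 0.0514), and without wounded replicate 4 r was 0.62 (permutation adjusted p = 0.138). Over the 7 units r was 0.79 (exact permutation adjusted p = 0.0869). Many other genes were closer to each of them. Among 599 other single-gene probes ranked by r over the 12 arrays, PSAN was at rank 86 for PSBY and PSBY at rank 42 for PSAN. Without wounded replicate 4 these ranks were 80 and 82. PSBY and LHB1B2 had an r of 0.32 and a rho of 0.47, and neither passed (permutation adjusted p = 0.358 and 0.254). With group means removed, r of this pair was 0.57 (permutation adjusted p = 0.0416). That test exchanged arrays between groups of unlike spread, where the log2 SD of LHB1B2 was 1.71 in wounded and 0.37 in untreated arrays. Its p is therefore not exact. Within the wounded arrays r was 0.59 and within the untreated arrays 0.73, and neither passed (exact permutation adjusted p = 0.122 and 0.1875).

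PSBW had no correlation that passed with any of the other 3 genes on the quantile-normalized scale over the 12 arrays. Its r was -0.64 with PSBY, 0.01 with LHB1B2 and -0.32 with PSAN (permutation adjusted p = 0.298, 0.645 and 0.358), and its rho was -0.15, -0.10 and -0.17 (permutation adjusted p = 0.767 for all 3). Wounded replicate 4, highest for PSBY and PSAN and lowest for PSBW, gave r its negative sign with PSBY and PSAN, and without it r was 0.41, 0.55 and 0.42 (permutation adjusted p = 0.249, 0.138 and 0.249). The scale mattered as well. With the deposited values and without wounded replicate 4, r of PSBW was 0.82 with PSAN (permutation adjusted p = 0.00864) and 0.73 with PSBY (permutation adjusted p = 0.0284), and with median centring 0.89 and 0.93 (permutation adjusted p = 0.00088 and 0.00036). Median centring takes the same array median from each gene. Over the 11 arrays the deposited values of PSBW, PSAN and PSBY had an r of -0.86, -0.72 and -0.49 with that median. The r between deposited values may thus hold a shared relation to the array median, which was not tested. Centring adds a further shared term to the genes. Values on neither of these scales are separate support for a common pattern. The p-values of this paragraph count the resembling arrays as separate samples.

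**Figure D5:**
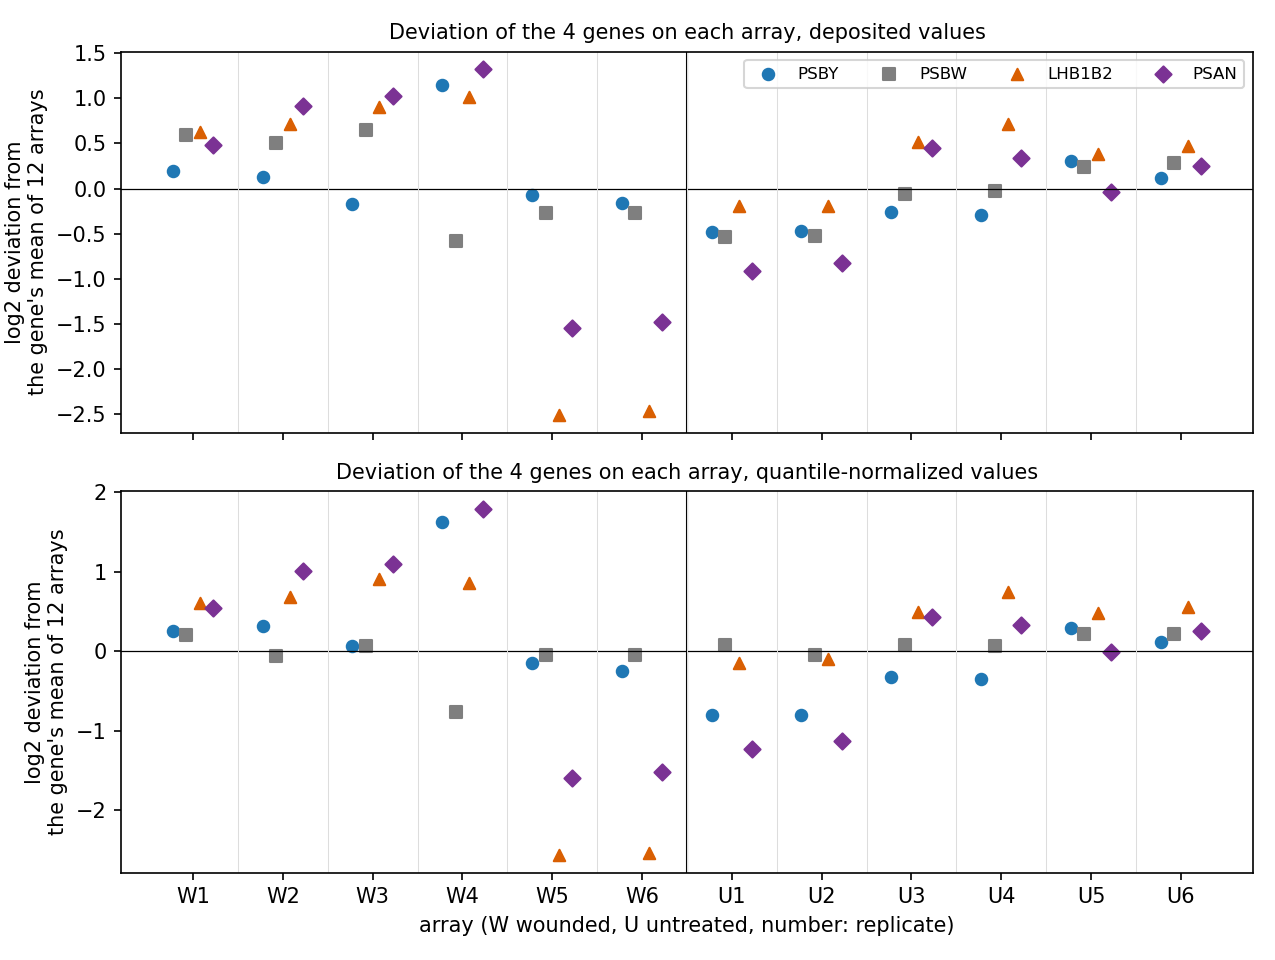
Deviation of each gene from its mean over the 12 arrays (vertical axis, log2) on each wounded (W) and untreated (U) array, for the deposited values (top) and the quantile-normalized ones (bottom). LHB1B2 and PSAN are high on wounded 1 to 4 and low on wounded 5 and 6 in both panels, while PSBW varies in the top panel and is nearly level in the bottom one except on wounded 4.

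The median log2 intensity of the arrays moved with some of these genes. It lay between -1.59 and -1.05 in the wounded arrays and between -1.10 and -0.77 in the untreated arrays, lowest on wounded 2 and 3 and highest on untreated 1 and 2. Of the 4 genes set against it over 12 arrays on the deposited log2 scale, PSAN had an r of -0.74 (permutation p = 0.00432, adjusted p = 0.0173) and a rho of -0.84 (permutation p = 0.00142), with r at -0.67 without the 2 arrays farthest from the middle. PSBW had an r of -0.66 (permutation adjusted p = 0.0458) and a rho of -0.54 (permutation p = 0.078), and r was -0.37 without the 2 farthest arrays. Without wounded replicate 4 its r was -0.86 (permutation adjusted p = 0.00096), and -0.83 when the 2 farthest of those 11 arrays were left out as well. LHB1B2 had an r of -0.42 (permutation adjusted p = 0.163) but a rho of -0.84 (permutation p = 0.0014), with r at -0.29 without the 2 farthest arrays. PSBY had an r of -0.49 (permutation adjusted p = 0.163) and a rho of -0.46, with r at -0.80 without the 2 farthest arrays. After quantile normalization r was -0.77 for PSAN (permutation adjusted p = 0.0119), -0.64 for PSBY (permutation adjusted p = 0.0588), -0.38 for LHB1B2 and 0.25 for PSBW. Without wounded replicate 4 PSBY had an r of -0.74 (permutation adjusted p = 0.01) and a rho of -0.55 (permutation p = 0.0826). On that scale LHB1B2 had a rho of -0.80 over the 12 arrays (permutation p = 0.00272). Without the 2 farthest arrays r was -0.85 for PSBY and -0.24 for LHB1B2. Over the 7 units on the deposited scale r was -0.76 for PSAN, -0.52 for PSBW, -0.46 for LHB1B2 and -0.53 for PSBY. The p-values of these relations to the median count the resembling arrays as separate samples and may be too small. No p is given for them over the units. The part of the array median in the shared pattern of LHB1B2 and PSAN was not tested.

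Among single-gene probes with a value on all arrays, the likeness to each member was measured by Pearson's r over 12 arrays, as a description, against 599 other probes. The genes most like LHB1B2 were AT1G62250 (r = 0.93), PSAN (0.81) and AT5G62550 (0.78), so PSAN was in the second place. The genes most like PSAN were AT2G18920 (r = 0.98), AT1G62250 (0.93) and AT1G04420 (0.93), with LHB1B2 at rank 23. AT1G62250, whose deposited intensity ran from 2.31 to 11.7, was thus close to both. With no further scaling of the deposited values, r of PSAN with AT1G04420 was 0.21 and r of LHB1B2 with AT5G62550 was 0.55. Over the 11 arrays without wounded replicate 4 the genes nearest to LHB1B2 were AT1G62250 (0.96), AT1G04420 (0.87) and AT3G61870 (0.86), and those nearest to PSAN were AT2G18920 (0.97), ATSPS4F, a sucrose phosphate synthase gene (0.95), and AT2G48130 (0.94). Over the 12 arrays LHB1B2 had an r of 0.77 with AT1G04420 and 0.58 with AT3G61870, and PSAN one of 0.84 with ATSPS4F and 0.50 with AT2G48130. With no further scaling, the 11 arrays gave 0.43 and 0.66 for LHB1B2 with these genes, and 0.36 and 0.67 for PSAN. All 4 values were thus lower over the 12 arrays and with no further scaling. Over the 11 arrays PSAN was at rank 9 for LHB1B2 and LHB1B2 at rank 22 for PSAN.

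PSBY was nearest to CML30, a calmodulin-like gene, with r = 0.98 over the 12 arrays and 0.97 over the 11. AT2G36480 (0.96) and AT5G06990 (0.95) followed over the 12, and APS4, an ATP sulfurylase gene (0.93), and CYN, a cyanase gene (0.92), over the 11, where APS4 and CYN had 0.60 each over the 12. PSBW was nearest to AT3G50880 (0.96), AT1G22700 (0.96), known as the photosystem I assembly factor PYG7, and AT5G58330 (0.95) over the 12 arrays. These values were 0.28, 0.26 and 0.48 with no further scaling, and 0.40, 0.24 and 0.48 with median centring. Without wounded replicate 4, which was lowest for PSBW, the quantile-normalized values became 0.71, 0.75 and 0.66, and the nearest genes were AT2G30320 (0.92), GH9B11, a glycosyl hydrolase gene (0.91), and AT3G54930 (0.87). The last 3 genes had an r of -0.26, -0.62 and -0.62 with PSBW over the 12 arrays, so none of the 6 genes was near PSBW under every setting given. No member was among the 3 nearest genes of PSBY, PSBW or PSAN.

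Of 87 genes listed for the photosystems, their antenna, electron transport, assembly and chlorophyll synthesis, 10 had a single-gene probe, the 4 members included. None of the 10 passed over the 12 arrays in limma, and without wounded replicate 4 a total of 2 fell, 0 rose and 8 did not pass (2.22% of probes called). The median log2 difference of the 10 was -0.27 over the 12 arrays and -0.15 without wounded replicate 4, beside -0.02 over all probes in both fits. For the 4 members alone it was 0.12 and 0.028. The lists were chosen with earlier results of these data known, so the medians only describe these genes. PSB27, a repair and assembly factor of photosystem II, had intensities from 0.525 to 2.46 in wounded and from 0.730 to 2.48 in untreated arrays, and its log2 difference was 0.31 ± 0.39 (SE, limma adjusted p = 0.719), between 0.13 without untreated replicate 4 and 0.63 without wounded replicate 1. Unlike the members it was lowest on wounded replicate 1.

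The 2 genes that fell without wounded replicate 4 act in assembly. LPA19, an assembly factor of photosystem II, lay between 0.292 and 0.756 in wounded arrays, below the 0.816 to 1.08 of untreated arrays, with a log2 difference of -0.64 ± 0.15 (SE, limma adjusted p = 0.0478). The rubredoxin gene AT1G54500 lay between 2.88 and 3.75 in the 5 wounded arrays other than replicate 4, which had 1.05, and between 4.58 and 5.62 in untreated arrays, with -0.67 ± 0.12 (limma adjusted p = 0.0266). Over all 12 arrays neither passed, at limma adjusted p = 0.200 and 0.216. Neither passed with the resembling arrays as a random block, where limma called 0 of 3203 probes (243 with an unadjusted p under 0.05). AT1G22700 had a difference of -0.69 ± 0.47 (SE) over the 12 arrays, the chlorophyll synthesis gene CHLM 0.20 ± 0.40, and AT1G74470, the geranylgeranyl reductase of chlorophyll synthesis, -0.34 ± 0.17. Without wounded replicate 4 these differences were -0.23 ± 0.24, -0.081 ± 0.33 and -0.23 ± 0.11. For these 3 genes the wounded and untreated ranges overlapped.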

How the data were processed

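Per the file headers, the authors deposited a table with 1 column per array, here an intensity on a linear scale, never below 0, for 3439 probes. How the arrays were background-corrected and scaled, and their type, is not stated in the sources used here. Gene names followed GEO's platform annotation, which may be out of date, and were updated through gene identifiers to RefSeq TAIR10.1, where 690 of 692 single-gene probes matched. No genome build is named, so no coordinates are given. No sequence of these genes was used here.

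Groups and replicate numbers came from the sample titles. Values of 0 were set to missing, the others put on the log2 scale and quantile-normalized. Probes with at least 4 values per group were fitted with limma 3.58.1 in R 4.3.3 (lmFit and eBayes, two-sided, no block, Benjamini-Hochberg over all probes, threshold 0.05). Correlations used two-sided permutation tests (SciPy 1.17.1), with 100000 resamples for 10 or more values and all pairings below that, adjusted over 6 pairs. The resampled tests can give no p below 2.0e-05. Except over the units, the permutation tests counted the resembling arrays as separate samples. Relations to the array median were adjusted over the 4 genes.

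The genes named are the members, every listed gene with a single-gene probe, and the 3 probes most correlated with each member over 12 and over 11 arrays. Members and lists were chosen with earlier results of these data known. The fit was tested on simulated data with independent arrays. These held no outlying array and no resembling pairs, so the test does not show how the fit deals with either. The number of arrays limits the precision. Alternatives covered the replicate block, the scaling, the filter, an offset, the resembling arrays and each array left out.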

Additional observations from a re-analysis of the deposited data

Results flagged for a closer look

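Among the 27 genes named, 10 of the 54 groups of 6 arrays had 1 array far from the others. Its gap to its neighbour, as a share of the group's range on the quantile-normalized scale, was above Dixon's critical value. Chance gives about 1 in 20 such groups only if the arrays are independent. The rate does not apply here, because every untreated array, and every wounded array except replicates 1 and 4, belonged to a resembling pair. An array with such a partner can hardly stand alone, so flags could hardly fall on arrays other than wounded 1 and 4. In 9 of the 10 groups the far array was wounded replicate 4, which already stood apart over the probes measured on every array. That array was highest for PSBY (a gap of 0.698 of the range), AT5G06990 (0.709), GH9B11 (0.753) and AT3G54930 (0.741). It was lowest for PSBW (0.735), AT1G54500 (0.717), AT1G22700 (0.884), AT3G50880 (0.751) and AT5G58330 (0.856). For PSB27 it was wounded replicate 1 that was lowest (0.717). LHB1B2 and PSAN had no such array, since their lowest values were shared by wounded 5 and 6. Several of these genes were named for their likeness to a member, so their gaps on wounded replicate 4 are not separate evidence.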

How the results depend on the processing

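No difference between wounded and untreated plants passed for PSBY, PSBW, LHB1B2 or PSAN under any of the 23 alternatives, where the lowest limma adjusted p was 0.327, 0.494, 0.445 and 0.465. Direction held for PSBY, LHB1B2 and PSAN, though no alternative left out wounded 5 and 6 together. On that pair LHB1B2 had quantile-normalized log2 values of -0.25 and -0.22. Wounded 1 to 4 had 2.92 to 3.22, above its untreated mean of 2.65. Whether the sign of LHB1B2 holds without the pair was not tested. The direction turned for PSBW, to 0.21 with no further scaling and 0.56 with median centring. Leaving out each array in turn gave 0.36 to 0.75 for PSBY, -0.27 to -0.08 for PSBW, -0.93 to -0.23 for LHB1B2 and 0.14 to 0.81 for PSAN. With the replicate number as a block the differences were 0.63, -0.21, -0.68 and 0.45, with 0 probes called. The numbers gave no sign of pairing, since deviations of same-numbered arrays from their group means correlated between -0.363 and 0.148 and no wounded array was, in these deviations, most like the untreated array of its number. CHLM turned to -0.14 with no further scaling, -0.0808 without wounded replicate 4, -0.0813 with it left out before scaling and -0.13 without it and with the replicate block, and ran from -0.0808 to 0.44 with each array left out.

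The count of probes called, 0 over the 12 arrays (376 at an unadjusted p under 0.05), was 7 with no further scaling, 1 with an offset of 0.1 and 73 with wounded replicate 4 left out before scaling. Leaving out each array gave 0 to 71, the 71 without wounded replicate 4. Over all probes, the middle log2 difference was -0.32 with no further scaling and 0.03 with median centring.

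LHB1B2 with PSAN kept its sign throughout (0.77 to 0.97) and passed except within the 6 wounded (0.97) and 6 untreated (0.97) arrays. PSBY with PSAN no longer passed by rank (0.58), with no further scaling (0.54), over 7 units (0.79), over 6 units without wounded replicate 4 (0.66), within wounded (0.75) and untreated arrays (0.73), or without wounded replicate 4 (0.62), then also by rank (0.45) or with no further scaling (0.36). PSBY with LHB1B2 passed with group means removed (0.57), where the test exchanged arrays between groups of unlike spread. It did not pass within wounded (0.59) or untreated arrays (0.73). PSBY with PSBW turned positive with no further scaling (0.044), with median centring (0.53), within untreated arrays (0.89) and without wounded replicate 4 (0.41), then also by rank (0.11), over 6 units (0.54), with no further scaling (0.73) and with median centring (0.93). PSBW with PSAN turned positive with no further scaling (0.50), with median centring (0.72, permutation adjusted p = 0.0145), within untreated arrays (0.53) and without wounded replicate 4 (0.42), then also by rank (0.083), over 6 units (0.49), with no further scaling (0.82) and with median centring (0.89). PSBW with LHB1B2 was negative by rank (-0.10), over 7 units (-0.091), with group means removed (-0.13) and within wounded arrays (-0.17), and passed with median centring without wounded replicate 4 (0.66). Without each array in turn, r ran from -0.72 to 0.41 for PSBY with PSBW, 0.25 to 0.37 for PSBY with LHB1B2, 0.62 to 0.78 for PSBY with PSAN, -0.032 to 0.55 for PSBW with LHB1B2, -0.39 to 0.42 for PSBW with PSAN and 0.77 to 0.86 for LHB1B2 with PSAN. The likeness of PSBW to AT2G30320, GH9B11 and AT3G54930 over 11 arrays turned to -0.28, -0.13 and -0.23 with no further scaling. The cause of these changes was not tested. Median centring takes the same array median from each gene of a pair, a shared term that can raise r. Settings that combine wounded replicate 4 with another choice, its removal before scaling, and the scalings of the likeness values were chosen after seeing the data.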
